A study of Mus musculus with 18 samples.

Results

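The guanylate-binding proteins (GBPs) are large GTPases of the dynamin superfamily that interferons induce, and that gather on vacuoles holding pathogens and on bacteria in the cytosol. In mouse macrophages they are known to open pathogen vacuoles and to help caspase-11 sense bacterial lipopolysaccharide. Binding of interferon-γ (IFN-γ) to its receptor activates JAK kinases, and the transcription factor IRF1 takes part in switching on the Gbp genes. The transcripts of Gbp2, Gbp3, Gbp4, Gbp5, Gbp6, Gbp7, Gbp8 and Gbp9 were examined here in mouse eosinophils, granulocytes best known from helminth infection and allergy. These 8 genes were taken by name from a table of 54446 genes.

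RNA was sequenced in 18 libraries of peritoneal eosinophils. The donors were Il5Tg mice (labelled strain C57BL/6), whose Il5 transgene gives them large numbers of these cells. Every library came from eosinophils cultured for 18 h with 5 apoptotic cells (ACs, wild type thymocytes killed with dexamethasone) per eosinophil and then purified again on beads against the eosinophil surface lectin Siglec-F. The Type 1 experiment held 12 libraries. In 3 of them the culture had no further stimulus (ACs alone), and 3 each had E. coli, IFN-γ or both stimuli added (E. coli + ACs, IFN-γ + ACs, and the combined stimulus IFN-γ + E. coli + ACs). The paper describes the combined stimulus as IFN-γ with E. coli given after it, so the order of addition is part of that group. A separate experiment held 6 libraries, 3 with IL-4 + ACs and 3 with ACs alone. Cultures that lacked ACs were not analysed here, and every change given below is one on a background of ACs. The labels do not say whether the libraries came from separate animals or cultures. The study's text speaks of biological replicates and, in a heat map of the response to ACs, gives each lane a mouse of its own. For the groups with a further stimulus the animals are not given in the sources used here, and p-values measure the spread between libraries, of which a part may be technical.

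Reads on genes ranged from 779421 to 7782072 per library, and the replicate 3 libraries of both groups of the IL-4 experiment (849705 with IL-4 and 779421 with ACs alone) stood far below the others. All 10 eosinophil transcripts on the list were above 0 in at least 1 library of every group. All genes of the thymocyte and T cell, B cell, neutrophil and mast cell lists met that bar with ACs too, so it does not tell cell types apart. Of the eosinophil transcripts, 8 had a mean normalised count of at least 10 over the Type 1 libraries, where Alox15 and Ccr3 led. The summed normalised count of all 10 ranged from 16864 to 18343 with ACs and was lower with IFN-γ + ACs, at 10351 to 11584. It was 18335 to 19636 with E. coli + ACs, 15053 to 17579 under the combined stimulus, and 21858 to 27377 in the IL-4 experiment. Macrophage transcripts were present too, all 10 of their list above 0 in at least 1 library of every group. Their sum ranged from 18023 to 23245 with ACs and from 28067 to 37525 with IFN-γ + ACs. Where E. coli was added it was lower, at 9594 to 11786 without IFN-γ and at 10950 to 12188 in its presence. The leading genes were C1qc and Lyz2, or Lyz2 and Adgre1 under the combined stimulus. Neutrophil transcripts (6 genes) summed to 563.5 to 601.8 with ACs, 286.6 to 314 with IFN-γ + ACs and 779.5 to 865.3 under the combined stimulus, with Elane and Mpo at 0 in the groups given IFN-γ or E. coli. Mast cell transcripts (5 genes) summed to 5.64 to 20.3 with ACs and 26.7 to 66.5 with IFN-γ + ACs. Thymocyte and T cell transcripts summed to at most 179 and B cell transcripts to at most 89.9. Macrophages express Gbp genes as well, and in bulk RNA fewer cells of a type cannot be told apart from less RNA per cell.

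The genes lie in clusters on chromosomes 3 and 5 of GRCm38. Gbp5, Gbp7, Gbp3 and Gbp2 follow each other, with Gbp2b between the last of these, on the plus strand of chr3:142493978-142638008, a stretch of 144 kb. Gbp8, Gbp9, Gbp4 and Gbp6 lie with Gbp10 and Gbp11 on the minus strand of chr5:105014150-105346472, a stretch of 332 kb. The Gbp8 gene spans 125.4 kb and overlaps Gbp9 and Gbp4, but they share only 60 or 61 exonic bases at their starts, far from the 3′ ends that the library protocol (CEL-Seq2) reads. Of the 50-base words in the last 500 bases of the longest coding transcript, none of Gbp2, Gbp3, Gbp7, Gbp8 or Gbp9 occurred in another gene. For Gbp6 it was 77.8% (351 of 451, shared with Gbp10, Gbp9 and Gm43302), so its counts are uncertain throughout. For Gbp4 it was 6.43% and for Gbp5 1.62%. The words that Gbp9 shares with the end of Gbp6 lie outside the window examined for Gbp9, so reads from that part of Gbp9 are uncertain too. Gm43302 and Gm43802, which overlap exons of Gbp6 and Gbp7, were at 0 in all libraries.

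RefSeq promoter sequences (GRCm38.p6) were at hand for 4 of the 8 genes, those of chromosome 3, and they are shown because these genes moved together with IFN-γ. Each stretch ends at or shortly before the RefSeq start of transcription. In the GENCODE annotation, the last 20 bases shown for Gbp2 and Gbp5 and the last 18 for Gbp3 already lie in an exon. The ISRE match of Gbp2 lies within those bases. It covers chr3:142496684-142496919 for Gbp5, chr3:142530086-142530335 for Gbp7, chr3:142559794-142560043 for the first start of Gbp3, and chr3:142620413-142620621 for Gbp2, all on the plus strand and written 5′ to 3′. Capitals mark matches to the interferon-γ-activated site GAS (TTCNNNGAA), to the interferon-stimulated response element ISRE (GAAANNGAAA), which IRFs bind, and to the NF-κB site.
Gbp5: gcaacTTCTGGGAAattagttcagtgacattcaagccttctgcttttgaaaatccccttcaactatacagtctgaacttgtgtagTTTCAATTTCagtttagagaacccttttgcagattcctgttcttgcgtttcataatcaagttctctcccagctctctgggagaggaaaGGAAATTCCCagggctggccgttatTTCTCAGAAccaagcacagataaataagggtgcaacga
Gbp7: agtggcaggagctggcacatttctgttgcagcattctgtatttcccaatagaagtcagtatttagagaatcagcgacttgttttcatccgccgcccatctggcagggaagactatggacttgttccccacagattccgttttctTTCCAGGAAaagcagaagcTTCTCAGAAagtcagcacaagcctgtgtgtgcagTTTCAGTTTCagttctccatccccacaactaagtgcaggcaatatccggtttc
Gbp3: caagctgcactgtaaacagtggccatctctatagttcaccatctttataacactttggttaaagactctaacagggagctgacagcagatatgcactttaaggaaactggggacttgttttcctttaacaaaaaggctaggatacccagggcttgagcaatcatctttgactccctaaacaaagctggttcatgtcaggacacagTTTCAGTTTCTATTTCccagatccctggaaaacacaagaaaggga
Gbp2: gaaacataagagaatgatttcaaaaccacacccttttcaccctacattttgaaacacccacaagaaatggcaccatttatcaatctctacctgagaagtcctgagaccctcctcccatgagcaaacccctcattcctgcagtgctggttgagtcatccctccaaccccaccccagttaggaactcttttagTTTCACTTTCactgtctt
Both strands were searched, and every ISRE match here lies on the minus strand and so reads TTTC, a pair of bases, and TTTC again. One or more ISRE matches stood in all 4 stretches, 59 bases before the RefSeq start in Gbp2, 53 in Gbp7, 165 in Gbp5, and 45 and 39 in Gbp3, where the pair overlap. RefSeq held 5 promoter entries for these 4 genes. The entry not shown began inside an annotated exon and held no match to any of the motifs. Over 32851 RefSeq windows of 300 bases, 3.44% held an ISRE match, 8.3% a GAS match and 8.46% an NF-κB match. Gbp5 held GAS matches 245 and 52 bases before its start and an NF-κB match 77 bases before it. Gbp2 held an NF-κB match just past its start, beyond the stretch shown. Gbp7 held GAS matches 106 and 87 bases before its start. No match to one motif overlapped a match to another. A match is a description of letters and was not tested as a binding site.

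With ACs alone, Gbp7 and Gbp2 made up most of the Gbp signal. Gbp7 is known to help assemble the phagocyte NADPH oxidase, and Gbp2 to coat pathogen vacuoles and bacteria. The normalised count (reads divided by a size factor of the library) of Gbp7 was 2659, 3183 and 3382 in the 3 libraries, and that of Gbp2 was 1562, 1443 and 1339. The other 6 genes had group means from 7.80 (Gbp6) to 215 (Gbp3). Since CEL-Seq2 reads 1 end of each transcript, counts were not divided by transcript length, but genes may differ in how well their ends are caught. Summed over the 8 genes, the level was 5202 ± 294 (SD, n = 3), or 0.133% of all reads on genes, and Gbp2 and Gbp7 together held 86.9% of it.

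**Figure D1:**
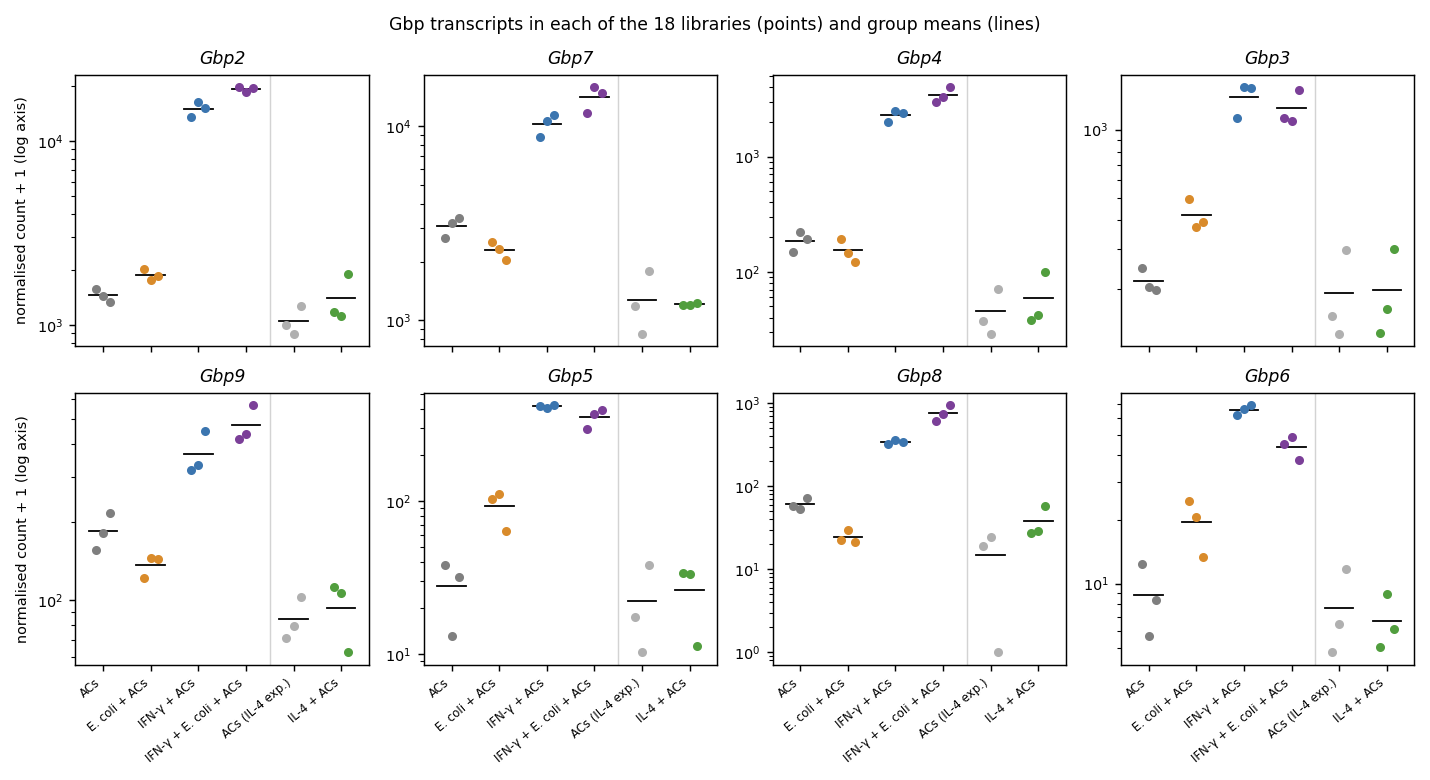
Normalised counts + 1 (log axis, a separate range in each panel) of the 8 Gbp genes, with 1 point per library and a line at the mean of each group of 3. In each panel the libraries with IFN-γ sit above all others, and in the IL-4 experiment (right of the grey line) the groups overlap in 7 of the 8 panels, Gbp8 being the exception.

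The first comparison asked how IFN-γ, the cytokine of Type 1 activation used in the study, changed these transcripts in the presence of ACs. All 8 Gbp genes rose. Gbp2 went from the 1339 to 1562 given above to 13553, 16352 and 15048, the highest level of any member with IFN-γ + ACs. No library of one group reached those of the other, and the change was 3.37 ± 0.10 on the log2 scale (SE, 10.3-fold, limma adjusted p = 4.7e-14). Changes are differences of log2(normalised count + 1), which understates the change of low genes. A gene was called changed at a Benjamini-Hochberg adjusted p under 0.05 over all genes tested together with a change of at least 1.5-fold. By that rule 11.4% of the 10166 genes tested rose and 9.96% fell with IFN-γ, and the median change was 2.83 over the 8 Gbp genes and -0.00 over all genes.

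Gbp5, which is known to promote assembly of the NLRP3 inflammasome, rose most. Its normalised count was 37.4, 12.2 and 31.0 with ACs and 417, 401 and 419 with IFN-γ + ACs. The IFN-γ libraries lay close together and all stood more than 10 times above the highest ACs library, a change of 4.03 ± 0.30 (16.3-fold, limma adjusted p = 5.1e-09). Gbp4, of the chromosome 5 cluster, went from 146, 220 and 192 to 1993, 2485 and 2376, a change of 3.63 ± 0.17 (12.3-fold, limma adjusted p = 1e-11), again without overlap.

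The other members rose less. Gbp3 rose by 2.69 ± 0.16 on the log2 scale (6.43-fold, limma adjusted p = 2.3e-10) and Gbp8 by 2.50 ± 0.19 (5.67-fold, limma adjusted p = 9.6e-09). Gbp6 rose by 2.97 ± 0.35 from counts of 4.69 to 11.4 to counts of 60.7 to 67.7, with the doubt over its reads given above. Gbp7 and Gbp9 changed least. Gbp7, the member with the highest level with ACs alone, went to 8859, 10624 and 11451, a change of 1.74 ± 0.14 (3.35-fold, limma adjusted p = 1e-08). Gbp9 was at 155, 181 and 216 with ACs and at 318, 331 and 449 with IFN-γ + ACs, a change of 0.99 ± 0.17 (1.98-fold, limma adjusted p = 0.00027). The groups did not overlap for any of the 8, where 42.9% of all genes tested had groups apart in one direction or the other. The macrophage transcripts given above moved with this comparison, 4 of 10 higher (C1qb, Lyz2, Mertk and Timd4) and 1 lower. Of 8 eosinophil transcripts tested, 5 were lower (Alox15, Cebpe, Ear6, Il5ra and Siglecf) and none higher. Among neutrophil and mast cell transcripts Ly6g (2.16) and Cpa3 (2.75) were higher and Mmp8 (-1.33) lower. The part of these shifts in the rise of the Gbp genes was not tested here.

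IFN-γ together with E. coli gave the highest summed Gbp level of the study, 39693 ± 2485 (SD, n = 3) against 30159 ± 3055 with IFN-γ + ACs, and 0.853% of all reads on genes. Against ACs alone all 8 genes rose again, from 1.36 ± 0.17 on the log2 scale for Gbp9 to 4.21 ± 0.17 for Gbp4, beside 14.7% of all genes tested that rose and 17.2% that fell (1494 and 1746 genes, or 1155 and 2200 when libraries were scaled to a common upper quartile). The median change was 3.09 over the 8 genes and -0.05 over all genes. Groups were apart for all 8, as for 48.8% of all genes tested. Both comparisons use the same ACs libraries. In the IFN-γ + E. coli + ACs libraries the macrophage sum lay below that of every ACs library (6 of its 10 genes lower, Adgre1 and Mertk higher), and 2 of 8 eosinophil transcripts were lower (Ear2 and Siglecf). The part of these shifts in the Gbp values was not tested. Gbp2 stood at 19706, 18455 and 19437, close together and a change of 3.73 ± 0.10 from ACs (13.3-fold, limma adjusted p = 1e-14). Gbp8 stood at 617, 748 and 944 where ACs gave 56.1, 51.6 and 71.0, a change of 3.66 ± 0.19 (12.6-fold, limma adjusted p = 2.8e-11).

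**Figure D2:**
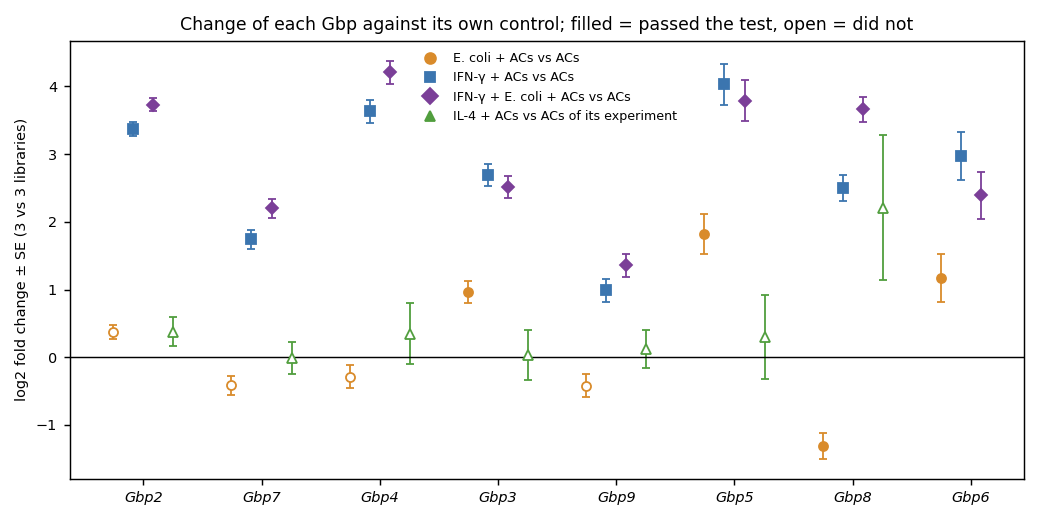
Log2 fold change (y axis, with SE) of each Gbp gene (x axis) against the ACs libraries of the same experiment, 3 libraries against 3, with filled symbols for changes past the test and the 1.5-fold limit and open symbols for the rest. IFN-γ with or without E. coli gave filled symbols from 0.99 to 4.21, E. coli gave symbols on both sides of 0, and no IL-4 symbol is filled (Gbp6 was too low to be tested there).

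E. coli + ACs asked what bacteria alone did, and here the family split. Of the 8 genes, 3 rose (Gbp5, Gbp3 and Gbp6) and 1 fell (Gbp8), beside 5.05% of the 10166 genes tested that rose and 5.25% that fell. The summed Gbp level was 5014 ± 450 (SD, n = 3), which overlapped that of ACs alone. Over the 8 genes the median change was 0.04, and over all genes -0.00.

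Gbp5 stood at 101, 110 and 62.4 with E. coli + ACs, above the 37.4 of the highest ACs library, and rose by 1.82 ± 0.30 (3.54-fold, limma adjusted p = 0.00027). Gbp3 went from 245, 203 and 197 with ACs to 494, 373 and 392, with no overlap, and rose by 0.96 ± 0.16 (1.94-fold, limma adjusted p = 0.00035). Gbp6 went from 11.4, 4.69 and 7.34 to 23.4, 19.6 and 12.3. The lowest E. coli value of Gbp6 was barely above the highest with ACs, and the change of 1.17 ± 0.35 (2.25-fold, limma adjusted p = 0.031) lost its call without replicate 2 or 3 of ACs or without replicate 1 or 2 of E. coli + ACs (1.17 or less, limma adjusted p from 0.077 to 0.14).

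Gbp8 went the other way. Its counts of 56.1, 51.6 and 71.0 with ACs came down to 21.8, 28.6 and 20.2 with E. coli + ACs, all below the lowest ACs value, a change of -1.31 ± 0.19 (0.405-fold, limma adjusted p = 9.8e-05). In a single fit of all 18 libraries, which share 1 estimate of spread, the calls for Gbp8 and Gbp6 with E. coli + ACs were lost (limma adjusted p = 0.29 and 0.095). Gbp7 gave 2536, 2332 and 2049 with E. coli + ACs, each below every ACs library, but its change of -0.41 ± 0.14 was under 1.5-fold (limma adjusted p = 0.049). For Gbp2 the E. coli libraries gave 2020, 1750 and 1833, each above every ACs library, and a change of 0.37 ± 0.10 that was also under 1.5-fold (limma adjusted p = 0.024). Gbp9 (-0.42 ± 0.17, limma adjusted p = 0.12) and Gbp4 (-0.29 ± 0.17, limma adjusted p = 0.31) did not pass the test. Groups were apart for 4 genes upward and 3 downward, beside 38.3% of all genes tested, and 6 of the 8 had an adjusted p under 0.05 at any fold, beside 13.5% of all genes tested. With E. coli, 7 of the 10 macrophage transcripts were lower and none higher (median change -1.30), and the part of this shift in the Gbp values was not tested.

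On top of IFN-γ, E. coli changed fewer of these genes past the threshold. Against IFN-γ + ACs only Gbp8 passed, from 319, 357 and 343 to the 617, 748 and 944 above, with no overlap and a change of 1.16 ± 0.19 (2.23-fold, limma adjusted p = 0.00031, or 0.29 in the single fit of all 18 libraries), beside 5.96% of the genes tested that rose and 8.61% that fell. Gbp4 went from 1993, 2485 and 2376 to 2994, 3282 and 4033, also without overlap, and its change of 0.58 ± 0.17 (limma adjusted p = 0.024) stood just under the 1.5-fold limit. It passed with edgeR and with DESeq2 on the recovered reads (0.61 in both, adjusted p = 0.0093 and 0.0029), and in the fits without replicate 2 or 3 of IFN-γ + ACs or without replicate 1 or 2 of the combined stimulus. Gbp7 (0.46 ± 0.14, limma adjusted p = 0.023) and Gbp2 (0.36 ± 0.10, limma adjusted p = 0.019) were under the limit as well, so 4 genes had an adjusted p under 0.05 at any fold, beside 19.7% of all genes tested. The remaining genes, Gbp9 (0.38), Gbp3 (-0.17), Gbp5 (-0.24) and Gbp6 (-0.58), did not pass. Groups were apart for 4 genes upward and 2 downward (Gbp5 and Gbp6), beside 29.6% of all genes tested. Of the macrophage transcripts 9 of 10 were lower here, with a part in these values that was not tested.

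The difference between the E. coli change with IFN-γ and that without it was then tested as an interaction, in which 3.16% of the genes tested came out higher and 4.28% lower. It passed for 6 of the 8 genes, 3 in each direction. The E. coli changes with and without IFN-γ each rest on their own 6 libraries and share none. Gbp8 fell with E. coli without IFN-γ (-1.31) and rose with it (1.16), a difference of 2.46 ± 0.27 on the log2 scale (limma adjusted p = 1.6e-05), the largest of the 8 in size. In plain counts, E. coli went with a mean of 23.5 in place of 59.6 without IFN-γ, and with 769 in place of 339 in its presence. Gbp4 (-0.29 without and 0.58 with IFN-γ, difference 0.88 ± 0.25, limma adjusted p = 0.035) and Gbp7 (-0.41 and 0.46, difference 0.87 ± 0.19, limma adjusted p = 0.0087) differed in the same direction.

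Gbp5, Gbp3 and Gbp6 showed the reverse order. Gbp5 changed by 1.82 with E. coli alone and by -0.24 on top of IFN-γ, a difference of -2.06 ± 0.42 (limma adjusted p = 0.0049). For Gbp3 the changes were 0.96 and -0.17 (difference -1.13 ± 0.23, limma adjusted p = 0.0043), and for Gbp6 they were 1.17 and -0.58 (difference -1.75 ± 0.49, limma adjusted p = 0.035). Gbp2 changed by 0.37 and 0.36, a difference of -0.01 ± 0.15, and Gbp9 by -0.42 and 0.38, a difference of 0.80 ± 0.25 that did not pass (limma adjusted p = 0.053) but did with edgeR and DESeq2 (0.85 in both, adjusted p = 0.036 and 0.016). Both clusters held genes of either direction, with Gbp5 and its neighbour Gbp7 on opposite sides on chromosome 3 and Gbp6 opposite Gbp4 and Gbp8 on chromosome 5. The calls for Gbp4 and Gbp6 were the least secure, kept in 5 and 3 of the 12 fits that left out 1 library (0.72 to 1.06 for Gbp4 and -2.03 to -1.47 for Gbp6), and no call passed when all 18 libraries shared 1 estimate of spread (limma adjusted p from 0.06 to 0.28).

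**Figure D3:**
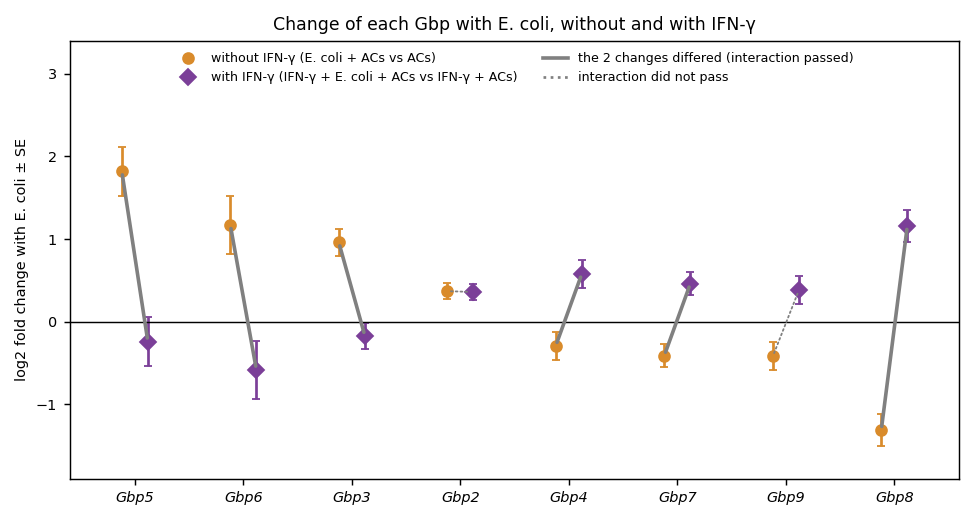
Log2 fold change with E. coli (y axis, with SE) of each Gbp gene, without IFN-γ (circles, E. coli + ACs against ACs) and with it (diamonds, IFN-γ + E. coli + ACs against IFN-γ + ACs), joined by a solid line where the difference passed the test and a dotted line where it did not. Lines fall from left to right for Gbp5, Gbp6 and Gbp3, rise for Gbp4, Gbp7, Gbp9 and Gbp8, and lie level for Gbp2.

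Read the other way, IFN-γ raised all 8 genes also in the presence of E. coli (IFN-γ + E. coli + ACs against E. coli + ACs), beside 9.79% of the genes tested that rose and 9.57% that fell (995 and 973 genes, or 769 and 1352 with the common upper quartile). Gbp8 led with 4.97 ± 0.19 (31.3-fold, limma adjusted p = 7.3e-13), followed by Gbp4 with 4.50 ± 0.17 (22.7-fold, limma adjusted p = 7.3e-13) and Gbp2 with 3.36 ± 0.10. The smallest changes were those of Gbp3 (1.55 ± 0.16) and Gbp6 (1.22 ± 0.35, limma adjusted p = 0.015, or 0.052 in the single fit, and 0.96 with an adjusted p of 0.084 without replicate 3 of E. coli + ACs). Groups were apart for all 8, as for 39.3% of all genes tested. The macrophage sums of these groups overlapped (9594 to 11786 and 10950 to 12188), with 1 of the 10 macrophage genes higher and 3 lower. Of 8 eosinophil transcripts tested, 4 were lower (Cebpe, Ear2, Ear6 and Prg2) and none higher. Among neutrophil transcripts Ly6g (1.46) and Mmp8 (1.61) were higher and Cxcr2 (-0.74) lower. The B cell transcript Cd79a was lower (-1.61). The part of these shifts in the Gbp values was not tested.

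The order of the group levels within the Type 1 experiment differed between members. Gbp2 was lowest with ACs, then came E. coli + ACs, then IFN-γ + ACs, and the combined stimulus stood on top, without any overlap of neighbours. Gbp7 and Gbp8 had E. coli + ACs at the bottom and ACs next, with the same upper pair, again without overlap, though the upper pair of Gbp7 was separated only by 11451 against 11726. Gbp4 had the same order, with overlap between its lower pair (146 to 220 with ACs and 121 to 193 with E. coli + ACs), and so had Gbp9, with overlap between its upper pair. For Gbp3, Gbp5 and Gbp6 the highest mean was with IFN-γ + ACs, and for Gbp3 that group overlapped IFN-γ + E. coli + ACs. For Gbp5 the same groups were separated only by 401 against 392. None of these differences passed (limma adjusted p = 0.49 for Gbp3, 0.62 for Gbp5 and 0.26 for Gbp6).

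IFN-γ also changed which member led. Of the summed Gbp count Gbp7 held 59.0% ± 3.94 and Gbp2 28.0% ± 3.77 with ACs (SD, n = 3), and with IFN-γ + ACs the shares were 34.1% ± 1.73 and 49.7% ± 1.94. The lowest Gbp7 share with ACs, 54.6%, lay above the highest with IFN-γ + ACs, 36.1%. The ratio of Gbp7 to Gbp2 counts was 2.14 ± 0.415 with ACs, 0.688 ± 0.0631 with IFN-γ + ACs, 0.741 ± 0.137 under the combined stimulus and 1.24 ± 0.109 for E. coli + ACs. Between groups of 3 a two-sided exact permutation test cannot give a p under 0.10, so shares were not tested. Together Gbp2 and Gbp7 held from 83.3% to 86.9% of the count in every group of both experiments. Gbp4 went from 3.56% ± 0.571 with ACs to 8.63% ± 0.897 under the combined stimulus, and Gbp3 was highest with E. coli + ACs (8.35% ± 0.687).

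**Figure D4:**
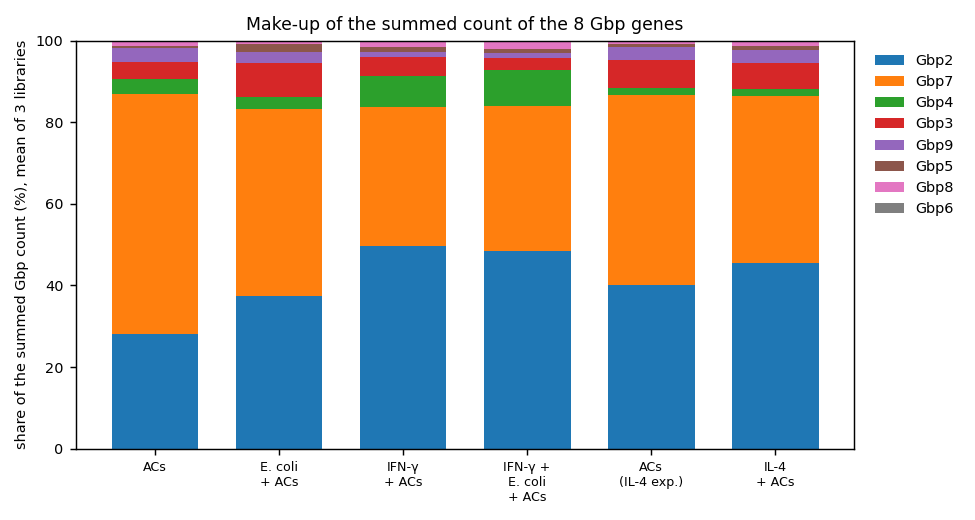
Share of the summed count of the 8 Gbp genes held by each (percent, stacked bars from 0 to 100, means of 3 libraries) in the 6 groups. Gbp7 is the largest share with ACs alone (59.0%) and Gbp2 with IFN-γ + ACs (49.7%), while their joint share stays between 83.3% and 86.9%.

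In the IL-4 experiment, which asked for the response to the Type 2 cytokine IL-4, no Gbp gene was called changed by limma, edgeR or DESeq2. Of the 7 genes tested (Gbp6 was below a mean normalised count of 10), 0 had an unadjusted p under 0.05 in limma, beside 1030 of all 10669 genes tested. By the call rule, with adjusted p and fold limit, 1.09% of the 10669 genes were called (0.74% higher and 0.347% lower). Gbp2 stood at 1179, 1123 and 1897 with IL-4 + ACs and at 1002, 895 and 1260 with ACs, where the groups overlapped, and differed by 0.38 ± 0.21 (limma adjusted p = 0.61). Gbp7 stood at 1200, 1202 and 1228 with IL-4 + ACs and at 1181, 851 and 1785 with ACs, a difference of -0.01 ± 0.23. The median difference was 0.30 over the 7 genes and -0.01 over all genes.

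Among the 7 Gbp genes tested with IL-4, Gbp8 gave the largest difference, 2.21 ± 1.07 (limma adjusted p = 0.55), with 26.6, 27.9 and 56.5 against 18.1, 23.4 and 0. The 0 came from the ACs library with the lowest depth, in which 3 reads equal a normalised count of 16.1, so a level near that of its companions could have gone unseen. With both shallow libraries left out, an alternative chosen after seeing the data, the difference of Gbp8 was 0.39, and Gbp5 passed the test (1.33, limma adjusted p = 0.043), on 33.0 and 32.7 with IL-4 + ACs against 16.5 and 9.34 with ACs. Groups were apart for 1 gene, Gbp8, beside 17.3% of all genes tested. The macrophage sum ranged from 21905 to 37064 with IL-4 + ACs and from 27134 to 40650 with ACs, with 1 of 10 genes lower.

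The IFN-γ change and the IL-4 change, each against its own ACs libraries, were compared in 1 fit of all 18 libraries. IFN-γ changed 6 genes more than IL-4 did, beside 8.09% of the 10414 genes tested that came out higher and 6.17% that came out lower. The difference was 3.73 ± 0.63 on the log2 scale for Gbp5, 3.27 ± 0.44 for Gbp4, 3.09 ± 0.61 for Gbp6, 2.99 ± 0.22 for Gbp2, 2.64 ± 0.39 for Gbp3 and 1.75 ± 0.26 for Gbp7 (limma adjusted p from 6.9e-09 to 0.0013). Gbp6 reached the mean of 10 needed for this fit only through the groups given IFN-γ. Its means were 64.6 with IFN-γ + ACs and 43.0 under the combined stimulus, but 5.70 with IL-4 + ACs and 6.64 with ACs beside IL-4. Its call is therefore no independent support. Gbp9 differed by 0.86 ± 0.31 (limma adjusted p = 0.066, or 1.02 with an adjusted p of 0.042 without replicate 1 of IL-4 + ACs). Gbp8 differed by 0.29 ± 0.99 (limma adjusted p = 0.89), and without the shallow ACs library that held its 0 by 1.77 (limma adjusted p = 0.0028). With all libraries kept, edgeR gave 1.82 (adjusted p = 0.0026) and DESeq2 1.78 (adjusted p = 0.00031) for Gbp8, so that 7 genes were called by either. Experiment and cytokine go together here, and the ACs groups of the experiments also differed in level (a summed Gbp count of 2685 ± 792 beside IL-4 and 5202 ± 294 in the Type 1 experiment).

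The remaining genes of the clusters were low, at levels like those of Gbp6 or Gbp5 in some groups. Gbp11, annotated as a polymorphic pseudogene, was at 0.81, 6.57 and 5.71 with ACs and at 40.9, 55.0 and 88.2 with IFN-γ + ACs. It rose by 3.72 ± 0.55 (limma adjusted p = 4.5e-05). Gbp11 reached the mean of 10 needed for the test only through the groups given IFN-γ. Its means were 61.38 with IFN-γ + ACs and 39.96 under the combined stimulus. With ACs the mean was 4.363, and with E. coli + ACs it was 5.09. The call of Gbp11 is therefore no independent support. Gbp2b was too low for a test in the Type 1 experiment, at 5.69, 3.75 and 9.79 with ACs, 27.7, 32.1 and 14.4 with IFN-γ + ACs and at most 4.14 under the combined stimulus. In the IL-4 experiment Gbp2b stood at 24.3, 18.4 and 36.0 with IL-4 + ACs and at 6.02, 4.67 and 53.6 with ACs, where the groups overlapped. The 36.0 and 53.6 came from the shallow replicate 3 libraries and rest on 7 and 10 reads, and the overlap rests on the 53.6. Gbp2b was tested there and not called (log2 change 1.02). Gbp10 was at 1.15 or below in every library.

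Of the genes of the IFN-γ receptor and its signalling, a list of 15 that were all tested, 8 rose and 1 fell with IFN-γ + ACs, and 10 rose under the combined stimulus. The list is not limited to genes upstream of the Gbp genes. Irf1, the transcription factor that acts on Gbp promoters, stood at 791, 823 and 736 with ACs and at 4639, 4445 and 4158 with IFN-γ + ACs, a rise of 2.49 ± 0.12 (limma adjusted p = 6.8e-12). Nlrc5, the transactivator of MHC class I genes, rose by 1.80 ± 0.14. Ifngr1, the ligand-binding chain of the receptor, fell by 0.60 ± 0.16 on the log2 scale with IFN-γ + ACs (limma adjusted p = 0.0082). With E. coli + ACs, none of the 15 rose and Jak2 fell. The list's median change was 0.75 with IFN-γ + ACs, where that of all genes was -0.00.

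The immunity-related GTPases, smaller interferon-induced GTPases that act on the same vacuoles, moved much as the Gbp genes did with IFN-γ. Of the 9 on the list 7 were tested and all 7 rose with IFN-γ + ACs (median 2.29) and under the combined stimulus (median 2.16), among them Igtp (2.70 ± 0.10) and Iigp1 (4.18 ± 0.19). None passed with E. coli + ACs. On top of IFN-γ, E. coli lowered Iigp1 (-0.96 ± 0.19, limma adjusted p = 0.0012) and Gm4951 (-1.11 ± 0.21, limma adjusted p = 0.0011) and raised none.

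Among 9 genes of the caspase-11 and inflammasome list, 5 rose with IFN-γ + ACs, and Il1b and Nlrp3 rose with E. coli + ACs. Pycard, the inflammasome adaptor, fell with E. coli + ACs (-0.72 ± 0.13, limma adjusted p = 0.00099), under the combined stimulus against ACs (limma adjusted p = 7.9e-06) and when E. coli was added to IFN-γ (-1.26 ± 0.13). Casp4, which encodes caspase-11, rose by 1.00 ± 0.17 with IFN-γ + ACs (limma adjusted p = 0.00015) and Gsdmd, whose protein forms the pore it opens, by 0.62 ± 0.12. Nlrp3 rose by 2.07 ± 0.24 with E. coli + ACs and by 1.51 ± 0.24 with IFN-γ + ACs. None of the 6 prenylation enzyme genes, whose products attach the lipid anchor that some GBPs carry, was called changed in any comparison, although Fnta passed the test without reaching 1.5-fold under the combined stimulus against E. coli + ACs (-0.50 ± 0.18, limma adjusted p = 0.044). Of 10 genes for the conjugation of ATG8 proteins, which GBP recruitment to vacuoles is known to need, 1 rose with IFN-γ + ACs (Gabarap, 0.82 ± 0.16). Map1lc3a fell under the combined stimulus against ACs (-1.29 ± 0.32) and against E. coli + ACs (-1.30 ± 0.32), where Atg16l1 rose (0.63 ± 0.21). On top of IFN-γ, E. coli lowered Gabarap (-0.69 ± 0.16) and Map1lc3a (-1.38 ± 0.32). No gene of these pathway lists passed in the IL-4 experiment.

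The 8 profiles were compared over the 12 Type 1 libraries as a description. Pearson's r between members ranged from 0.70 to 0.99 (median 0.92, 28 pairs), and these libraries fall into groups with high and low IFN-γ response, which any gene that responds shares. Among 6740 genes with a mean of at least 50, the mean profile of the 8 was most like those of AW112010 (r = 0.993), Igtp (0.992), Psme2 (0.990, a proteasome activator subunit), Tmem140 (0.988) and Fgl2 (0.988). AW112010 stood at 925, 813 and 715 with ACs, at 7884, 9022 and 9218 with IFN-γ + ACs and at 12273, 11533 and 14796 under the combined stimulus.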

How the data were processed

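RNA was measured by CEL-Seq2 in the 18 libraries described above. The signal deposited by the authors for a gene is its read count over the library's DESeq2 size factor. According to the submitters' processing notes, reads were trimmed (Trim Galore, cutadapt 1.10), aligned to GRCm38 (TopHat2 2.1.0, Bowtie2 2.2.6), counted (HTSeq 0.6.1) and normalised (DESeq2 1.26.0), and the paper's methods name unique alignments only and also describe a second pipeline, so the one behind the values is not certain. The loss of reads that align to several genes would lower Gbp6 most. Division by the value of 1 read in a library gave whole reads for 100.0% of values (within 0.01). All 18 columns were used. Of 54446 identifiers, 54409 matched a symbol in GENCODE M21. Depth was 779421 to 7782072 reads on genes (median 4461121), and 3 reads, taken as the lowest count distinct from 0, equal 15.42 and 16.08 in the shallow libraries. Replicates differed by more than counting error (chi-square per degree of freedom from 4.19 to 14.69).

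The test was limma 3.58.1 under R 4.3.3, with lmFit and eBayes (trend), on log2(normalised count + 1) over genes with a mean of at least 10: the Type 1 comparisons on its 12 libraries, IL-4 on its 6, and the difference between the IFN-γ and IL-4 changes on all 18. Scripts were tested on simulated data. Alternatives were a pseudocount of 5, filters that kept any value above 0 or means of at least 50, a common upper quartile, the replicate number as a block, edgeR 4.0.16, DESeq2 1.42.0 (both on recovered reads), a single fit of all 18 libraries, calls without a fold limit, and leaving out each replicate. All 8 members are named, with genes of fixed pathway and marker lists and the 5 genes most like the members in profile. The values of 1 gene of these lists are not reported here. Members and lists were chosen with earlier results of these data known. The GTF gave positions and read sharing, and RefSeq (GRCm38.p6) the promoters.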

Additional observations from a re-analysis of the deposited data

Results flagged for a closer look

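The change with E. coli differed between eosinophils with and without IFN-γ for 6 Gbp genes, by the limma interaction test. On the log2 scale the difference was 2.46 for Gbp8, 0.88 for Gbp4 and 0.87 for Gbp7, and it was -2.06 for Gbp5, -1.75 for Gbp6 and -1.13 for Gbp3. In the single fit of all 18 libraries 0 of the 6 passed, and the calls for Gbp4 and Gbp6 were kept in 5 and 3 of the 12 fits that left out 1 library. The macrophage transcripts moved with the same groups, and their part in these differences was not tested.

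The change with IFN-γ differed from that with IL-4 for 6 Gbp genes in the fit of all 18 libraries. The difference was 3.73 for Gbp5, 3.27 for Gbp4, 3.09 for Gbp6, 2.99 for Gbp2, 2.64 for Gbp3 and 1.75 for Gbp7. Gbp6 entered this fit only through its level in the groups given IFN-γ, and it was too low for a test in the IL-4 experiment. Cytokine and experiment cannot be told apart in this comparison.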

How the results depend on the processing

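Against ACs, IFN-γ and the combined stimulus each gave calls for all 8 Gbp genes under every alternative except a mean of at least 50, which left Gbp6 untested and called the other 7. With E. coli + ACs, 2 members in place of 4 were called in the single fit of all 18 libraries, which also called 0 in place of 1 for E. coli on top of IFN-γ and 0 in place of 6 for the interaction. The cause was not tested. Of the fits that left out 1 library, the interaction call of Gbp4 was kept in those without replicate 1 of ACs, replicate 1 of E. coli + ACs, replicate 3 of IFN-γ + ACs or replicate 1 or 2 of the combined stimulus, that of Gbp6 in those without replicate 1 of ACs, replicate 3 of E. coli + ACs or replicate 2 of the combined stimulus, and Gbp9 gained one without replicate 1 of ACs, replicate 3 of IFN-γ + ACs or replicate 2 of the combined stimulus. The filter that kept any value above 0 also ended both interaction calls (limma adjusted p = 0.064 and 0.085) and that of Gbp6 with E. coli + ACs (0.072). For E. coli on top of IFN-γ, edgeR and DESeq2 called 2 each and calls without the fold limit came to 4, since that limit alone held back the others. Leaving out 1 library gave 3 to 4 calls with E. coli + ACs, 1 to 3 for E. coli on top of IFN-γ, 4 to 7 for the interaction and 0 to 0 with IL-4, where 1 gene (Gbp5) was called with both shallow libraries left out, an alternative chosen after seeing the data. Leaving out replicate 1 of IFN-γ + E. coli + ACs added Gbp7 (0.59, limma adjusted p = 0.0082) for E. coli on top of IFN-γ. Across the changes of single members, 1267 stayed called or stayed not called under an alternative, 34 lost a call, 26 gained one and 0 reversed.

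The replicate numbers did not pair the libraries (correlation of same-numbered deviations -0.09 to 0.09, none over 0.1). With them as a block the interaction called 7 members in place of 6, adding Gbp9, and the block changed no other member's call. Over all genes the IL-4 calls moved most, from 79 higher and 37 lower to 45 higher with the block, 127 and 85 with edgeR, 128 and 81 with DESeq2, 125 and 83 with any value above 0, 345 and 311 without both shallow libraries, and 105 lower in the single fit. Leaving out 1 library gave 31 to 95 higher and 16 to 51 lower. With means of at least 50, genes lower with IFN-γ went from 1013 to 645 and with the combined stimulus from 1746 to 963. Without the fold limit 963 in place of 606 were higher with E. coli on top of IFN-γ. For the interaction the single fit gave 281 lower in place of 435, and leaving out 1 library gave 161 to 444 higher and 239 to 582 lower. With E. coli + ACs it gave 352 (without replicate 3 of ACs) to 614 lower, in place of 534. A common upper quartile shifted the median of all genes from -0.05 to -0.18 with the combined stimulus against ACs and from -0.04 to -0.15 against E. coli + ACs. It also lowered Gbp2 under the combined stimulus to 18238.8 from 19199.4 and changed no member's call.

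Depth limits Gbp6 and the shallow IL-4 libraries, where differences between low members were not detectable.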
